A study of Sus scrofa with 12 samples.

Results

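The genes described here are 6 genes of Schwann cells and peripheral myelin, MBP, PMP22, PRX, SOX10, S100B and NCAM1, in the longissimus dorsi muscle of Iberian pigs. They were chosen by name, with earlier results of these data known. They are 6 of the 15211 annotated genes with a value above 0 in at least 1 of the 12 libraries. The 12 pigs were castrated purebred Iberian males fattened outdoors on acorns and grass, 6 with a high (H) and 6 with a low (L) estimated breeding value for intramuscular fat (IMF). The labelled IMF of the muscle was 10.6 to 13.8% in H and 1.70 to 2.28% in L, so the groups differed in muscle fat as well as in breeding value. The study's text describes a higher mean IMF for the L group than these labels give, and the labelled values are used here. Each library was a single pig, the muscle was sequenced whole, and no nerve was dissected out.

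Motor and sensory axons run through muscle, wrapped by Schwann cells. A myelinating Schwann cell winds its membrane around 1 axon, and the compacted layers are held together by proteins that include MBP and PMP22. SOX10 is the transcription factor that holds the Schwann cell lineage and switches on myelin genes, and periaxin (PRX) ties the outer Schwann cell membrane to the basal lamina. S100B is a calcium-binding protein used as a Schwann cell stain, also made by adipocytes, and NCAM1 is an adhesion molecule of non-myelinating Schwann cells, satellite cells and the neuromuscular junction. In bulk muscle, fewer cells of a type and less RNA per cell cannot be told apart.

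The values are FPKM (fragments scaled to transcript length and library size) of the transcripts assembled in each library, summed per gene and scaled between libraries by median ratios. At 1 FPKM a transcript had a mean coverage of 7.50 to 11.5 reads per base, depending on the library. H4 and L3 were the libraries least like the others (mean r over all genes tested of 0.877 and 0.870, against 0.884 to 0.899), so each difference is also given without them. Muscle fibre genes summed to between 22009 and 40495 FPKM, whereas the 6 genes together summed to between 16.97 and 58.2 FPKM. Of the neuron and axon markers, NEFL, NEFM, PRPH, SNAP25, ELAVL3, ELAVL4 and CHAT were listed at 0 in all 12 libraries. STMN2 and SYT1 were above 0 in 4 libraries each, up to 0.787 and 1.51 FPKM, NEFH in 1 and UCHL1 in all 12.

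By summed FPKM, NCAM1 and PMP22 were the highest of the 6, at a mean of 11.02 ± 8.58 and 10.7 ± 2.94 FPKM (SD, n = 12 pigs). Neither was above the other in more than 6 of 12 pigs. MBP followed at 3.54 ± 1.53 FPKM and S100B at 3.39 ± 0.997 FPKM, and these neighbours did not differ beyond their spread (MBP was the higher in 5 of 12 pigs). PRX lay below S100B in all 12 pigs, at 1.17 ± 0.347 FPKM, and SOX10 lay below PRX in all 12. The place of NCAM1 depends on the measure, since its sum adds up several assembled transcripts in each pig. As coverage of the annotated exons, NCAM1 averaged 2.66 FPKM units in H and 3.62 in L pigs. PMP22 averaged 7.04 and 7.26 by that measure.

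No member passed the test between H and L (limma on log2(FPKM + 0.5), Benjamini-Hochberg adjusted p under 0.1 over 12572 genes), where 0.00795% of all genes were called. An unadjusted p under 0.05 was reached by 7.33% of all genes and by 0 of the 5 members tested. SOX10 was under the minimum of 0.5 FPKM and was compared with an exact permutation test alone.

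**Figure D1:**
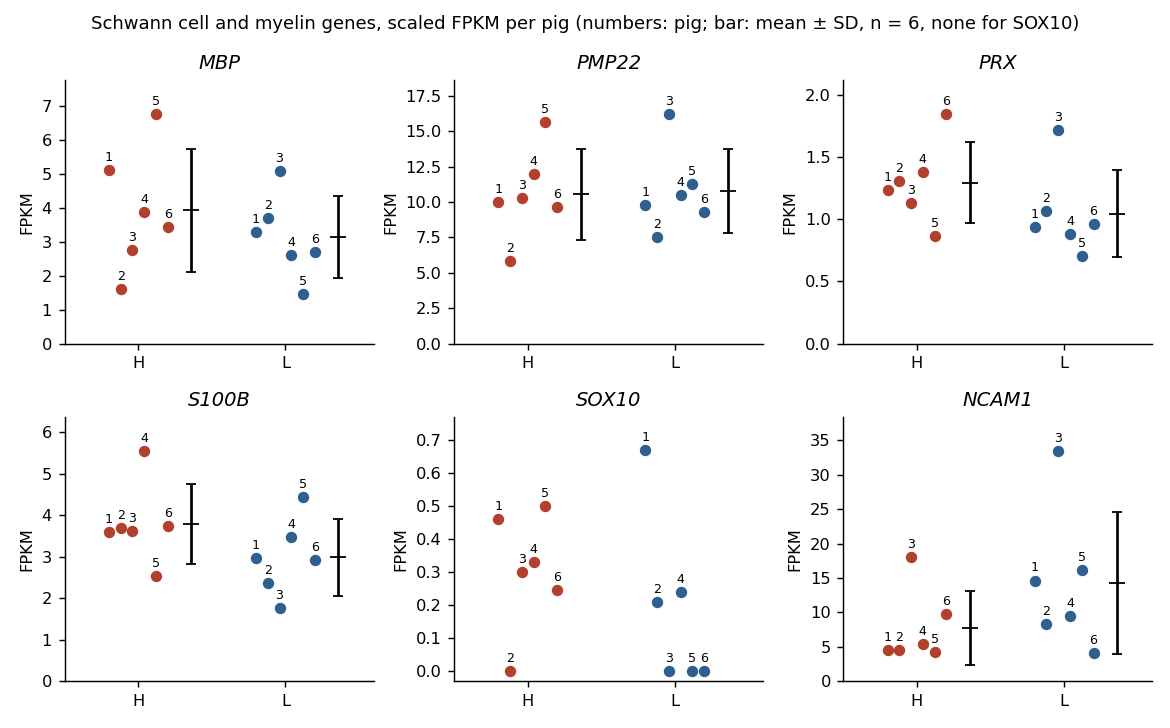
Scaled FPKM of the 6 genes in each pig, H in red and L in blue, with the pig's number above its point and the group mean ± SD (n = 6) as a bar. The groups overlap for all 6 genes, and SOX10 is listed at 0 in 1 H pig and 3 L pigs.

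MBP, the myelin basic protein that seals the cytoplasmic faces of compact myelin, lies on chromosome 1 (Sscrofa11.1, 147649516 to 147685289, plus strand), with 1 annotated transcript. Its summed level ran from 1.62 through a median of 3.66 to 6.76 FPKM among H pigs and from 1.46 through 3.00 to 5.09 FPKM among L pigs. The highest pig was H5 and the lowest was L5, and the groups overlapped over most of their range. The difference H minus L was 0.25 ± 0.30 on the log2 scale (SE, 95% interval -0.41 to 0.90, limma adjusted p = 0.868), and it was 0.37 without H4 and L3 (limma adjusted p = 0.855).

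The assembled MBP transcripts did not have the annotated structure. Of 25 transcripts, 24 began between 80.8 and 81.2 kb before the annotated start, in all 12 libraries, and 0 began within 100 bases of it. In other mammals MBP lies inside a longer unit, Golli, whose transcripts begin far upstream and are also made outside myelin, in immune cells and neurons. The annotation used here holds no such exons. A transcript that begins inside an exon of a longer one with the same introns cannot be told apart from it in an assembly, so these files do not show whether the annotated start is used.

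The upstream part is joined by 3 unannotated introns, and their splice sites are shown because the upstream form rests on them. The first (147568787 to 147590864) was found in 11 libraries, and the second (147590941 to 147617446) and the third (147617535 to 147649294) in all 12. In the reference sequence below, the capitals mark the first 2 bases (donor) or last 2 bases (acceptor) of each intron, with 12 bases of exon beside it, read 5′ to 3′.
Intron 1 donor: aagcttagcgcgGTgggtgactct
Intron 1 acceptor: tttctctttcAGtgtctgaagacc
Intron 2 donor: aagggaaataagGTaagaaaatct
Intron 2 acceptor: tgttttttccAGgatagtgaaggc
Intron 3 donor: gtgacgtgtttgGTatgtaacata
Intron 3 acceptor: tgttgtttgcAGgagaggcagatg
All 3 introns carry GT and AG ends. A second donor for intron 1, at 147568514, was used in 7 libraries and has the same ends.

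Read from the reference sequence, the upstream exons continue the reading frame of annotated MBP. The annotated frame holds 172 codons, and 133 further codons in frame lie before its start codon, from an ATG in the second upstream exon, which gives 305 codons in all. This count leaves out 2 bases of the genome (147649642 and 147649643), as the annotation does. With those bases kept the frame ends 87 codons after the annotated start, and 1 L library also had a 2-base gap there.

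The upstream transcripts had 2 main shapes. The short form has 4 exons and ends inside the annotated first intron. It ran from 1.12 through 1.503 to 5.04 FPKM in H pigs and from 1.45 through 1.82 to 3.70 FPKM in L pigs, and it was listed in all 12. The long form reads on through the annotated coding exons to the annotated end. It ran from 0.505 through 1.51 to 2.39 FPKM among H pigs and from 0 through 1.11 to 1.78 FPKM among L pigs, where it was not listed in L2 and L5. The groups overlapped for both forms. The long form differed by 0.71 on the log2 scale (exact permutation p = 0.167, adjusted p = 0.671 over 11 splice measures) and the short form by -0.09 (exact permutation p = 0.797, adjusted p = 0.996).

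Of the FPKM in the 2 forms, the long form held 25.6 to 56.1% with a median of 46.3% in H pigs, and 0 to 44.1% with a median of 36.9% in L pigs, which overlapped as well (exact permutation p = 0.154, adjusted p = 0.671). Counted as coverage of the annotated exons alone, MBP was lower than the summed FPKM in all 12 pigs. It ran from 0.656 through 2.18 to 2.66 in H and from 0.163 through 1.26 to 2.17 in L, in FPKM units (difference 0.63 on the log2 scale, exact permutation p = 0.123).

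**Figure D2:**
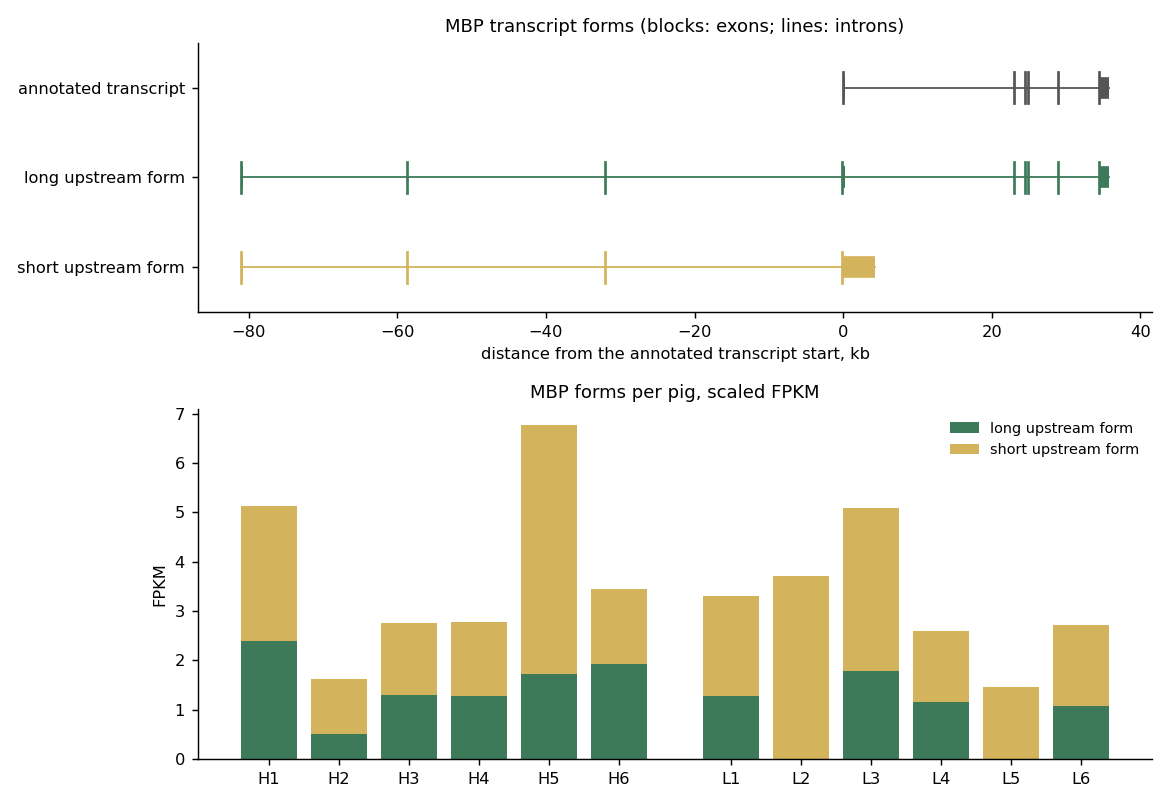
Upper part, the exons of the annotated MBP transcript and of the long and short upstream forms, in kb from the annotated start. Lower part, scaled FPKM of both forms in each pig: the short form is present in all 12 and the long form is missing in L2 and L5, while a further 5-exon transcript of H4 is not drawn.

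PMP22, the peripheral myelin protein whose dose matters for myelin and which fibroblasts and many other cells also make, lies on chromosome 12 (58679773 to 58734195, minus strand). Its level ran from 5.80 through 10.1 to 15.6 FPKM in H pigs and from 7.50 through 10.2 to 16.2 FPKM in L pigs. H2 was lowest and L3 highest, and the medians of the groups were nearly equal. The difference was -0.04 ± 0.22 on the log2 scale (95% interval -0.52 to 0.44, limma adjusted p = 0.975), and it changed sign without H4 and L3 (0.03, limma adjusted p = 0.990).

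PMP22 is read from alternative first exons. In other mammals the upstream one is the exon used in myelinating Schwann cells and the downstream one is used more widely. Both were assembled with annotated intron chains in all 12 pigs, with first bases between 58707940 and 58707965 for the upstream exon and between 58705359 and 58705404 for the downstream exon. The most distal annotated first exon was joined in 0 libraries. The 100 bases before the median first base of each are shown, 5′ to 3′ on the minus strand, because the finding turns on these starts. Capitals mark a match to CCAAT or GGGCGG on either strand.
Before the upstream first exon, chr12:58707942-58708041: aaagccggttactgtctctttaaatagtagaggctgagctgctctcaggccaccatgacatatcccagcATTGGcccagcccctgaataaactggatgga
Before the downstream first exon, chr12:58705378-58705477: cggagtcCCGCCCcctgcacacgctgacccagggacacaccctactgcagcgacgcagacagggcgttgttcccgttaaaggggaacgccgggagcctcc
Over 300 bases, G and C made up 59.3% before the upstream exon and 66.3% before the downstream exon, against a median of 56.7% before 19556 protein-coding genes. CCAAT was found in the upstream window alone and is in 35.8% of all those windows, GGGCGG in the downstream window alone and in 47.6%, and TATAAA in neither and in 11.9%.

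Transcripts from the upstream first exon ran from 3.25 through 3.598 to 5.18 FPKM in H pigs and from 2.86 through 3.44 to 6.76 FPKM in L pigs. Those from the downstream first exon ran from 2.34 through 6.61 to 10.4 FPKM in H and from 3.74 through 5.88 to 12.9 FPKM in L. The downstream exon was the higher in 10 of 12 pigs, and the exceptions were H2 and L4, where the upstream exon held 59.7 and 64.4% of PMP22. The upstream share was 38.2 ± 10.8% in H pigs and 38.3 ± 14.6% in L pigs (SD, n = 6, exact permutation p = 0.996). Neither first exon passed the test between the groups (exact permutation p = 0.952 for the upstream and 0.957 for the downstream exon, adjusted p = 0.996 for both).

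**Figure D3:**
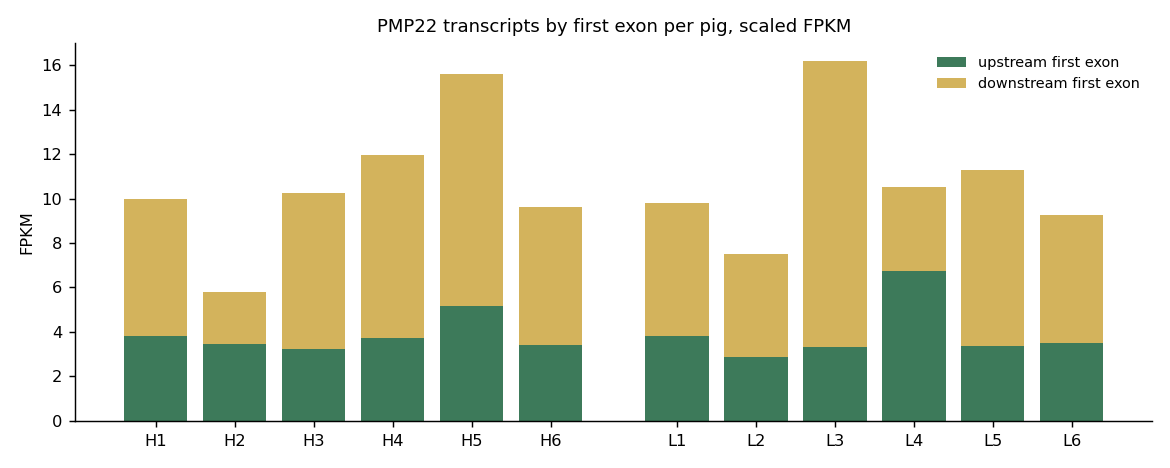
Scaled FPKM of PMP22 transcripts from the upstream and the downstream first exon in each pig. Both are present in all 12 pigs, and the upstream exon holds most of PMP22 in H2 and L4.

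PRX encodes periaxin, which joins DRP2 and dystroglycan in the Schwann cell's outer membrane, and lies on chromosome 6 (48675230 to 48691760, minus strand). It ran from 0.869 through 1.27 to 1.85 FPKM in H pigs and from 0.706 through 0.950 to 1.72 FPKM in L pigs. In 5 of 6 H pigs PRX was above the L median, but L3 was above all H pigs other than H6. The difference was 0.22 ± 0.17 on the log2 scale (95% interval -0.15 to 0.60, limma adjusted p = 0.789), and 0.32 without H4 and L3 (limma adjusted p = 0.817). Coverage of the annotated exons ran from 0.349 to 0.894 FPKM units in H and from 0.237 to 0.758 in L pigs (difference 0.18, exact permutation p = 0.323). By this measure L3, at 0.758, lay below H1 at 0.871 and H4 at 0.894.

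The PRX assembly was broken up, with a median coverage of 3.58 reads per base over 37 transcripts and 0 transcripts with the annotated chain. The last annotated intron (48679208 to 48679806) was found in 10 libraries. In H4, H5, H6, L3 and L6 the exon before the last was left out by an unannotated intron (48679208 to 48683262), whose ends are shown with the intron's first or last 2 bases in capitals.
Exon-skipping donor: gcttgcaggaagGTgggcggggca
Exon-skipping acceptor: ctctctccccAGaacatccagagt
The annotated first intron was found in 0 libraries, and 5 libraries instead joined the second exon to a nearer first exon through 48686222 to 48690007.

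SOX10 lies on chromosome 5 (9890439 to 9901746, plus strand) and was the lowest of the 6. From H1 to H6 its values were 0.462, 0, 0.301, 0.330, 0.499 and 0.246 FPKM. From L1 to L6 they were 0.669, 0.209, 0, 0.241, 0 and 0 FPKM. Thus 5 H pigs and 3 L pigs had a value above 0, while the highest single value was in L1. The groups overlapped, and the difference in mean log2(FPKM + 0.5) was 0.27 (exact permutation p = 0.303), and 0.18 without H4 and L3 (exact permutation p = 0.571). Its transcripts were partial, with 0 of 10 carrying a whole annotated chain and a median coverage of 2.55 reads per base. At this coverage a value of 0 is a gene not assembled, not one shown to be silent.

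S100B lies on an unplaced scaffold of Sscrofa11.1 (189784 to 197338, plus strand). The scaffold was recognised by 179 introns shared between the files and RefSeq. The annotated 3-exon chain from the upstream first exon was assembled in all 12 libraries, at 2.37 to 5.54 FPKM in 11 of them and at 0.422 FPKM in L3, where the rest of S100B lay in other transcripts. The level ran from 2.54 through 3.66 to 5.54 FPKM in H pigs and from 1.75 through 2.94 to 4.45 FPKM in L pigs. H4 was highest and L3 lowest, and 5 of 6 H pigs were above the L median. The difference was 0.31 ± 0.20 on the log2 scale (95% interval -0.12 to 0.74, limma adjusted p = 0.755), and it was 0.09 without H4 and L3 (limma adjusted p = 0.927).

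NCAM1 lies on chromosome 9 (40628602 to 40960605, plus strand) with 41 annotated transcripts. Its level varied most among the members that were above 0 in all pigs, from 4.24 through 4.96 to 18.0 FPKM in H pigs and from 4.03 through 12.01 to 33.4 FPKM in L pigs. Only H3 and H6 of the H pigs passed 9 FPKM, against L1, L3, L4 and L5, yet L6 was the lowest of all 12. The difference was -0.78 ± 0.47 on the log2 scale (95% interval -1.79 to 0.23, limma adjusted p = 0.737). It was -0.43 without H4 and L3 (limma adjusted p = 0.877) and -0.26 as coverage of the annotated exons. From transcripts with annotated intron chains alone the direction turned, to 1.18.

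NCAM1 messages differ by small exons, and those seen in whole or in part in these libraries are shown. The 30-base exon lengthens an immunoglobulin domain and is known as VASE. The 15, 48 and 42-base exons belong to the stretch known as the muscle-specific domain, first described in muscle NCAM. Capitals mark the exon and lower case the 12 intron bases on each side.
30-base exon, chr9:40910628-40910657: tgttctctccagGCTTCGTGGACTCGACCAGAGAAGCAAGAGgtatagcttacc
15-base exon, chr9:40919905-40919919: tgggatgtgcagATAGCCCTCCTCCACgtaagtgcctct
48-base exon, chr9:40924348-40924395: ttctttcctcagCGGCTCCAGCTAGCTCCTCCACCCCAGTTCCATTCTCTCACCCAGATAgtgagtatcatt
42-base exon, chr9:40926002-40926043: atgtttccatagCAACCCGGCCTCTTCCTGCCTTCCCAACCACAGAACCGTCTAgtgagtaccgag
The length of each is a multiple of 3, so each keeps the reading frame.

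All 12 pigs had NCAM1 transcripts with the 30-base exon and transcripts without it. The exon was in 45.7 ± 12.2% of NCAM1 spanning it in H pigs and in 43.0 ± 16.8% in L pigs (SD, n = 6, exact permutation p = 0.738, adjusted p = 0.996). The lowest shares were 34.6% in H3 and 26.7% in L1, and the highest 62.9% in H2 and 68.3% in L2. The intron that leads into the 15-base exon was also found in all 12 pigs. The intron from that exon to the next common exon was found in 7, 3 H and 4 L. In the other pigs a message that reads on past the 15-base exon is not shown. Splicing past all of the muscle-specific exons was found in 10. The 42-base exon was found in H1, H2 and H3. In H2 and H3 a transcript with it began at the 48-base exon, whose end was joined to the 42-base exon. The intron that leads into the 48-base exon was found in 0 libraries. An unannotated intron (40918700 to 40926001) that leads straight into the 42-base exon was found in 2 H libraries. In H2, transcripts with the 42-base exon held 1.56 FPKM and those with the 48-base exon 1.23 FPKM. Neither the 48-base nor the 42-base exon was found in an L pig. These counts were not tested, since a rare splice is easily missed in an assembly.

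The 3′ end of NCAM1 decides how the protein is held. Transcripts that end at the near terminal exon encode the form with a lipid anchor, and those that read on encode transmembrane forms. Coverage of the near terminal exon ran from 1.87 through 3.34 to 9.14 FPKM units in H pigs and from 0 through 3.11 to 6.10 in L pigs. Over the transmembrane exons it ran from 0 through 0.943 to 2.45 in H pigs and from 0.525 through 1.18 to 1.45 in L pigs. The intron into the near terminal exon was found in 5 libraries, 4 H and 1 L. The intron into the transmembrane exons was found in 6, 4 H and 2 L. In the other libraries any coverage came without that splice, so it does not show which form was made. Neither end passed the test between the groups (exact permutation p = 0.307 and 0.366, adjusted p = 0.671 for both). The 807-base exon that lengthens the cytoplasmic tail was covered in 0 libraries. In L3, the pig with the most NCAM1, the near terminal exon was listed at 0 and the first exons at 30.6 FPKM units, so its high level rests on transcripts that were not assembled to that end.

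**Figure D4:**
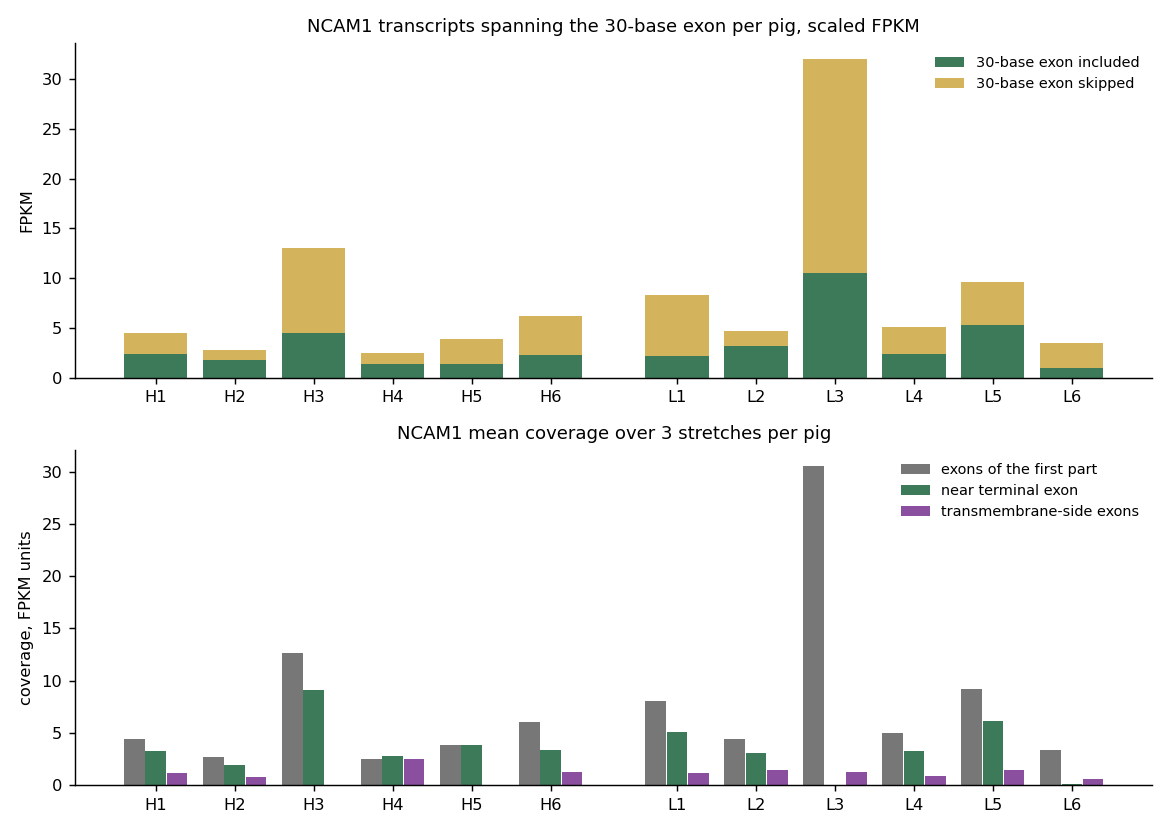
Upper part, scaled FPKM of NCAM1 transcripts that include or skip the 30-base exon in each pig. Lower part, mean coverage in FPKM units over 6 exons of the first part, the near terminal exon and 2 transmembrane exons: L3 reaches 30.6 in the first part with the near terminal exon at 0.

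Over intron chains found in at least 6 libraries, 5 chains could be compared, 2 of MBP, 2 of PMP22 and 1 of S100B. Their exact permutation p ran from 0.152 to 0.957, and the smallest adjusted p was 0.758, for S100B. PRX, SOX10 and NCAM1 had no chain in 6 libraries.

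Among other genes of compact myelin, 0 of 6 tested passed the test in either direction, with 2 of 6 differences above 0 and a median of -0.0068 on the log2 scale, beside 0.0028 over all genes tested. CD9, a tetraspanin of many cell types, was the highest of the list at a median of 40.5 and 49.1 FPKM (limma adjusted p = 0.903), NDRG1 differed by 0.19 ± 0.18 (limma adjusted p = 0.819) and PMP2, a lipid-binding protein of myelin, by 0.06 ± 0.15 (limma adjusted p = 0.936). MAG, GJB1 and FA2H were listed at 0 in all 12 libraries.

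Of the 112 genes tested in all lists, 5 passed the minimum of 0.5 FPKM only through the group in which they were higher, EGR2 through L and ERBB3, DRP2, CHRND and LEP through H, so their differences are descriptions. Among transcription factors of the lineage, 0 of 9 tested passed, with a median difference of -0.14, or -0.10 without EGR2. EGR2, which drives myelination with SOX10, ran from 0 through 0.292 to 0.871 FPKM in H pigs and from 0.324 through 0.657 to 2.65 FPKM in L pigs (difference -0.70 ± 0.35, limma adjusted p = 0.692). The study, with Cuffdiff, counted EGR2 as differentially expressed and lower in the H group, and discussed it with muscle growth and adipogenesis. Which cells made the EGR2 RNA was not tested. ZEB2 differed by -0.37 ± 0.21 (limma adjusted p = 0.728) and YY1, the highest of the list, by -0.27 ± 0.16 (limma adjusted p = 0.732). SOX2, POU3F2 and TFAP2A were listed at 0.

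Of 9 listed markers of immature and non-myelinating Schwann cells, 4 were tested and 0 passed, with 1 of 4 differences above 0. NES, nestin, was highest at a median of 8.33 FPKM in H and 12.1 in L pigs. It differed by -0.68 ± 0.51 (limma adjusted p = 0.785), and which cells made its RNA was not tested. GFRA3 differed by -0.37 ± 0.35 (limma adjusted p = 0.820), L1CAM by -0.14 ± 0.20 (limma adjusted p = 0.884) and FOXD3 by 0.23 ± 0.38 (limma adjusted p = 0.909). Among genes of axon to Schwann cell signalling, 0 of 8 passed. ERBB3, the neuregulin receptor of Schwann cells, ran from 0 through 0.432 to 1.36 FPKM in H pigs and from 0 through 0 to 0.536 FPKM in L pigs (difference 0.65 ± 0.31, limma adjusted p = 0.689). Its partner ERBB2 differed by 0.19 ± 0.23 (limma adjusted p = 0.873), ADAM22 by -0.35 ± 0.27 (limma adjusted p = 0.789) and CADM1 by 0.32 ± 0.25 (limma adjusted p = 0.793).

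The partners of periaxin and genes of the node and basal lamina gave 0 of 11, with 9 of 11 differences above 0 and a median of 0.22, where 50.5% of all genes were above 0. Without DRP2, 8 of 10 were above 0, with a median of 0.22. DRP2 is held by periaxin at the Schwann cell membrane. From H1 to H6 its values were 1.05, 0, 0.632, 0.996, 0.820 and 1.22 FPKM. From L1 to L6 they were 0.251, 0, 0, 0, 0 and 0.156 FPKM. All H pigs but H2 were above all L pigs. The difference was 1.10 ± 0.29 on the log2 scale (limma adjusted p = 0.567). Over the 24 settings in which DRP2 was tested, this one included, the difference ran from 0.70 to 2.27 with limma adjusted p from 0.0679 to 0.813. It was under the threshold in 1 of them, without H2. DRP2 was left out by the filter at a minimum of 1 FPKM and among genes above 0 in all libraries. The same held for annotated intron chains alone and for coverage of the annotated exons. DRP2 was tested because its mean in H, 0.787 FPKM, passed the minimum, while its mean in L was 0.0679 FPKM, so its difference is a description. NRCAM differed by 0.33 ± 0.25 and ANK3 by 0.26 ± 0.20 (limma adjusted p = 0.789 for both), while DAG1, dystroglycan, was the highest at a median of 66.2 and 60.6 FPKM (limma adjusted p = 0.950).

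**Figure D5:**
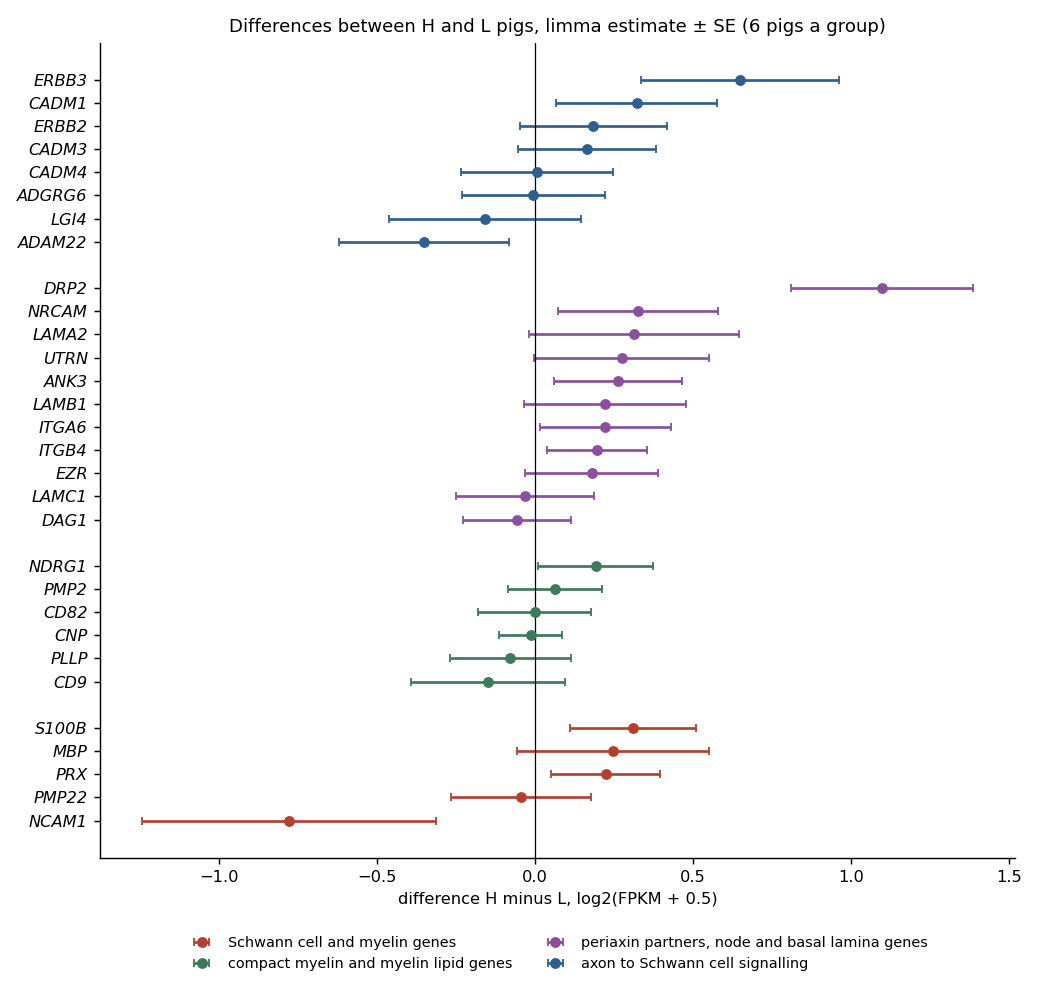
Differences H minus L on the log2(FPKM + 0.5) scale with SE (limma, 6 pigs a group) for the members, other compact myelin genes, periaxin partners with node and basal lamina genes, and axon to Schwann cell signalling. DRP2 stands farthest above 0 at 1.10 and NCAM1 farthest below at -0.78, and no gene drawn passed the adjusted threshold.

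Of the S100 relatives, 0 of 7 passed. S100A1, a muscle fibre protein, was highest at a median of 63.8 and 65.6 FPKM (limma adjusted p = 0.994), S100A4 differed by -0.36 ± 0.25 (limma adjusted p = 0.777), S100A16 by -0.43 ± 0.36 (limma adjusted p = 0.798) and S100A13 by 0.69 ± 0.98 (limma adjusted p = 0.888). Of relatives and partners of NCAM1, 0 of 4 passed. The enzymes that add polysialic acid to NCAM1, ST8SIA2 and ST8SIA4, differed by -0.41 ± 0.25 (limma adjusted p = 0.737) and 0.30 ± 0.22 (limma adjusted p = 0.783), and the partner receptor FGFR1 by 0.35 ± 0.26 (limma adjusted p = 0.784). NCAM2 was listed at 0.

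The neuron and axon list had 1 gene tested. UCHL1, a deubiquitinase listed as a neuron marker, ran from 9.21 through 11.6 to 22.2 FPKM in H pigs. In L pigs it ran from 14.4 through 22.9 to 26.6 FPKM, with 5 of 6 L pigs above 5 of 6 H pigs. The other genes of this list were above 0 in at most 4 libraries, and which cells made the UCHL1 RNA was not tested. The difference was -0.71 ± 0.22 on the log2 scale (unadjusted p = 0.00635, limma adjusted p = 0.567).

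Other cell types in the muscle, several of which make members themselves, were read from their markers, and no marker passed the test. Of the denervation and neuromuscular junction genes, which like NCAM1 are made more in denervated fibres, 0 of 7 passed. CHRND differed by 0.35 ± 0.35, MUSK by 0.30 ± 0.26 and GADD45A by -0.65 ± 0.83 (limma adjusted p from 0.805 to 0.878), with 178.4 FPKM of GADD45A in L3. CHRNG was listed at 0. Satellite cell markers gave 0 of 6, with CD34 at 0.35 ± 0.28, PAX7 at 0.17 ± 0.24, MYF5 at -0.12 ± 0.20 and SDC4, the highest, at 0.06 ± 0.27 (limma adjusted p from 0.794 to 0.967).

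Adipocyte markers, of a cell type that also makes S100B, gave 0 of 10 called with all 10 differences above 0 and a median of 0.68, or 9 of 9 and 0.65 without LEP. CIDEC, a lipid droplet protein, differed by 1.23 ± 0.37, PPARG by 0.45 ± 0.18, LEP by 0.71 ± 0.34 and GPD1, the highest, by 0.10 ± 0.46 (limma adjusted p from 0.567 to 0.972). Their summed level ran from 155.6 to 439.5 FPKM in H pigs and from 170.8 to 358.8 FPKM in L pigs. That sum follows its highest genes and hardly holds the low ones. GPD1 averaged 144.3 FPKM in H and 126.3 in L pigs, and CIDEC 2.74 and 0.873 FPKM. Endothelial markers gave 0 of 6 with all 6 above 0, TEK at 0.31 ± 0.11, KDR at 0.38 ± 0.17, PECAM1 at 0.42 ± 0.20 and VWF at 0.30 ± 0.53 (limma adjusted p from 0.619 to 0.910), and CLDN5 was listed at 0. Smooth muscle and pericyte markers gave 0 of 6 with all 6 above 0, PDGFRB at 0.45 ± 0.20, TAGLN at 0.43 ± 0.26, RGS5 at 0.32 ± 0.27 and ACTA2 at 0.22 ± 0.33 (limma adjusted p from 0.678 to 0.898).

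Fibroblast markers gave 0 of 8 with 7 above 0, DPT at 0.32 ± 0.22, FBN1 at 0.48 ± 0.34, PDGFRA at 0.25 ± 0.21 and DCN at 0.21 ± 0.25 (limma adjusted p from 0.771 to 0.868). Immune markers gave 0 of 6 with 4 above 0, CD163 at 0.62 ± 0.39, CSF1R at 0.23 ± 0.20 and CD3E at 0.15 ± 0.25 (limma adjusted p from 0.749 to 0.903), while PTPRC and AIF1 were at -0.06 ± 0.32 and -0.11 ± 0.32 (limma adjusted p = 0.977 and 0.949) and CD68 was listed at 0. Of the melanocyte genes, a lineage that also uses SOX10, PMEL, MLANA, DCT and TYRP1 were listed at 0. TYR was above 0 in 2 libraries, up to 0.195 FPKM in H pigs and 1.04 FPKM in L pigs, and was not tested. MITF differed by -0.25 ± 0.30 (limma adjusted p = 0.867). Muscle fibre genes gave 0 of 7, with TNNI2 at -0.32 ± 0.34, TNNC2 at 0.17 ± 0.21, TNNT3 at 0.17 ± 0.24 and MYLPF, the highest, at 0.07 ± 0.22 (limma adjusted p from 0.841 to 0.948).

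Over the 12 pigs, 0 of 15 pairs of members were correlated at an adjusted p under 0.1. The pair with the smallest p was MBP and PMP22 (Pearson r = 0.601, permutation p = 0.0375, adjusted p = 0.486, and Spearman rho = 0.399, permutation p = 0.201, adjusted p = 0.889), with r = 0.701 without the 2 pigs farthest from the median of MBP. Within the groups r was 0.889 in H pigs and 0.241 in L pigs. Within each group, 0 of 12 relations between a member and the labelled IMF passed, and the closest was PMP22 in the L pigs (r = 0.733, exact permutation p = 0.0597, adjusted p = 0.717, and rho = 0.829, exact permutation p = 0.0583, adjusted p = 0.700).

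Members were also set beside mean log2 levels of 8 marker lists, 48 relations in all. S100B followed the smooth muscle and pericyte markers (r = 0.817, permutation p = 0.00135, adjusted p = 0.0648, and rho = 0.643, permutation p = 0.0281, adjusted p = 0.639), in H pigs (r = 0.833) and in L pigs (r = 0.763). It rests on H4 and L3, the 2 pigs farthest from the median of the markers, without which r was 0.530. As deviations from the group means r was 0.784, with 0 of the 48 relations called. The summed level of these 6 markers ran from 83.7 to 215.8 FPKM in H pigs and from 69.6 to 145.1 FPKM in L pigs. None of the other 47 relations passed. The part of these cells in the level of any member was not tested.

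The genes most like each member over the 12 pigs, by Pearson r among all genes tested, were not myelin genes. They were GPBP1, RAB7A and XPOT for MBP (r from 0.849 to 0.873), HARS, CPD and DBR1 for PMP22 (0.877 to 0.945), and HMGXB3, USP40 and ZNF316 for PRX (0.820 to 0.852). For SOX10 they were MOK, KMT5B and AGPAT1 (0.833 to 0.864), for S100B MFAP4, ANXA4 and VSTM4 (0.913 to 0.921), and for NCAM1 ATP2B1, TRAM1 and EPRS (0.864 to 0.868). These are the highest of 12572 values and are given as a description.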

How the data were processed

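Per the labels and the study's methods, RNA of longissimus dorsi from 12 pigs was sequenced paired-end on a HiSeq2000. The submitters' processing notes name FastQC, Trim Galore, TopHat2 2.1.0, Cufflinks 2.2.1 and Sscrofa11.1. The deposited files are the authors' Cufflinks assemblies, 1 per library, with FPKM, its 95% interval and coverage for each transcript. These are not counts, so no count model was used.

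Each transcript was given to the RefSeq gene of the same strand with which it shared most exonic bases. FPKM was summed per gene and scaled by median ratios over 10606 genes. Scaffolds were paired with RefSeq by at least 3 identical introns. Of 173178 distinct introns, 86.2% were annotated. Genes averaging 0.5 FPKM or more in either group (12572) were tested with limma 3.58.1 (R 4.3.3) on log2(FPKM + 0.5) with a variance trend, after a test on simulated data. A fold change on this scale understates that of low genes. Exact permutation tests used all 924 splits of 6 against 6, whose smallest p is 0.00216, and correlations 100000 resamples, or all 720 orders within a group. The p-values measure the spread between the pigs, 1 library each.

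The members and lists were chosen with earlier results of these data known. The 6 members are given in full. From the lists of roles, genes named in the text are the 3 with the smallest p, any called and the highest, and for each member the 3 genes with the highest r. FOXD3, PTPRC, AIF1, STMN2, SYT1, NEFH and TYR were added after their values were seen. Splice forms were defined after the structures were seen. Pigs of H and L share numbers in the labels, which follow falling breeding value within each group and are not described as pairs. Same-numbered pigs did not deviate together (r from -0.0761 to 0.0600 over 6 pairs). A gene of the compact myelin list is not reported here and was left out of the counts and the mean level of that list.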

Additional observations from a re-analysis of the deposited data

Results flagged for a closer look

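In 34 groups of 6 pigs, 8 held a pig whose gap to the next passed the 95% limit of Dixon's test, where chance gives about 1 in 20, and the measures of one gene overlap. L3 stood above the other L pigs in PRX at 1.72 FPKM (others 0.706 to 1.07) and in the first part of NCAM1 at 30.6 FPKM units (others 3.36 to 9.22). As coverage of the annotated exons, PRX in L3 was close to that in L2, at 0.758 and 0.702 FPKM units. H3 stood apart in the first part of NCAM1 at 12.6 (others 2.45 to 6.02) and in its near terminal exon at 9.14 (others 1.87 to 3.82). SOX10 was 0.669 FPKM in L1 (others 0 to 0.241). PMP22 from the upstream first exon was 5.18 FPKM in H5 (others 3.25 to 3.81) and 6.76 FPKM in L4 (others 2.86 to 3.81), and its share was 59.7% in H2 (others 31.2 to 38.1%).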

How the results depend on the processing

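Under the alternatives tried, no member tested across all genes came past the adjusted threshold of 0.1. SOX10 was judged by its exact permutation p, of which the smallest was 0.0541, and with no filter on low values, where it was fitted across all genes, by its limma adjusted p of 0.847. MBP, PRX, S100B and SOX10 stayed higher in H in each of them, from 0.084 to 0.44, 0.14 to 0.33, 0.19 to 0.42 and 0.196 to 0.44 on the log2 scale when single pigs were left out, and from 0.22 to 0.63, 0.16 to 0.33, 0.089 to 0.46 and 0.15 to 0.77 under the others. PMP22 changed sign with quantile normalization (0.025) and without H4 and L3 (0.031), and from -0.16 to 0.11 when single pigs were left out, being above 0 without H2 and without L3. NCAM1 was 1.18 from annotated intron chains alone, where few of its transcripts are counted, -1.06 to -0.48 when single pigs were left out, and -0.81 to -0.26 under the others. With the replicate block, 0 genes were called, and NCAM1 was -0.78 (unadjusted p = 0.0690, limma adjusted p = 0.726). The block changed no call of a member. Over all genes, 1 was called, LOC102162288, with 0 at a minimum of 1 FPKM and 0 among genes above 0 in all libraries, 2 with array weights and 1 to 3 when single pigs were left out. Of the pairs of members, 0 were called, and 0 to 1 when single pigs were left out, an alternative chosen after seeing the data. It was 1 without L3 and 1 without L5. S100B and the pericyte markers were the 1 relation called, with 0 as deviations from the group means (r = 0.784 against 0.817) and 0 without H4 and L3. Low coverage limits PRX and SOX10 most. The causes were not tested.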
